A study of Mus musculus with 6 samples.

Results

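The genes described here are 10 classic targets of 2 transcription systems that read the state of the actin cytoskeleton, the serum response factor SRF and the coactivator YAP. They were taken as all non-control probes whose gene name on the array was Ctgf, Cyr61, Ankrd1, Amotl2, Srf, Acta2, Tagln, Cnn1, Myl9 or Vcl, which gave 16 probes on 25 spots, of 41174 probes on 43379 spots and 27670 named genes in all. Ctgf and Cyr61 are now called Ccn2 and Ccn1. RNA came from fibroblasts of mouse embryos, used as primary cultures in DMEM with fetal calf serum, and was measured on one-colour Agilent arrays. The 3 groups of 2 arrays were the untreated state (0 h) and treatment for 2 h or for 4 h with the oxidant hydrogen peroxide (H2O2) at 1 mM. No genotype or strain is given in the labels, which describe both arrays of a group as independent experiments. An untreated culture kept for the same hours is not among the samples, so time in culture and H2O2 cannot be told apart.

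YAP and its relative TAZ (encoded by Wwtr1) enter the nucleus when cells are spread and under tension, and there bind TEAD factors on DNA. The Hippo kinases Lats1 and Lats2 phosphorylate them and keep them in the cytoplasm. SRF binds a DNA element called the CArG box, together either with ternary complex factors that answer MAP kinase signals or with the actin-sensing cofactors MRTF-A and MRTF-B. In fibroblasts the SRF system drives actin, contractile and focal adhesion genes, and the YAP system drives secreted CCN proteins and its own feedback inhibitors.

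Of the 10 genes, 8 matched a promoter entry of RefSeq (GRCm38.p6, 250 bases before to 50 after the transcript start), all but Ctgf and Tagln. The TEAD core motif GGAATG, searched on both strands, was found in 5 of the 8 windows (Cyr61, Ankrd1, Amotl2, Acta2 and Vcl), against 14.7% of all 32851 windows. The CArG box was found in 3 of the 8 (Srf, Myl9 and Vcl), against 1.63% of all windows. No match of one motif overlapped a match of the other. The stretches with matches are shown for the 3 YAP targets and for 3 SRF targets, because TEAD factors and SRF are known to bind these motifs. Binding to these stretches was not measured. Each is written in the gene's own direction, and capitals mark the matched motif (GGAATG, or CATTCC where it lies on the other strand, and the CArG box).
Cyr61, chr3:145650053-145650118, minus strand: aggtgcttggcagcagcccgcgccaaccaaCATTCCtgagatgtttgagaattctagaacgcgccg
Ankrd1, chr19:36119932-36120084, minus strand: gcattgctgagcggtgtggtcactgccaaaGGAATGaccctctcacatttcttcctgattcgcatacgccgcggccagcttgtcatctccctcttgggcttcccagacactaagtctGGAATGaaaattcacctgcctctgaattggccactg
Amotl2, chr9:102717709-102717774, plus strand: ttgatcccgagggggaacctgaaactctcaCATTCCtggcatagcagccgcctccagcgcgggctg
Srf, chr17:46556185-46556274, minus strand: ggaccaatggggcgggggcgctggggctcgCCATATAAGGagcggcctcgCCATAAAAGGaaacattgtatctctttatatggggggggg
Myl9, chr2:156775273-156775342, plus strand: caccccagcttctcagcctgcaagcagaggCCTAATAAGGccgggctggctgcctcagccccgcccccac
Vcl, chr14:20929148-20929290, plus strand: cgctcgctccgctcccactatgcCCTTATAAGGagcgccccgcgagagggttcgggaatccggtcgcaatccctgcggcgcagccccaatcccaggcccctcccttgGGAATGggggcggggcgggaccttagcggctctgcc
Srf itself carries a pair of CArG boxes, beginning 82 and 62 bases before its start, and Vcl carries both motifs. Among all tested genes with a promoter entry, 14.6% of the 1658 with GGAATG were lower at 2 h than in untreated cells, against 15.3% of the 9527 without it. Of the 190 tested genes with a CArG box 29.5% were higher at 2 h, against 23.6% of the 10995 without one. At 4 h 23.7% of those with a CArG box were higher than in untreated cells, against 24.3% of those without. These shares are descriptions with no test, and no match says only that these letters are not in the window.

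**Figure D1:**
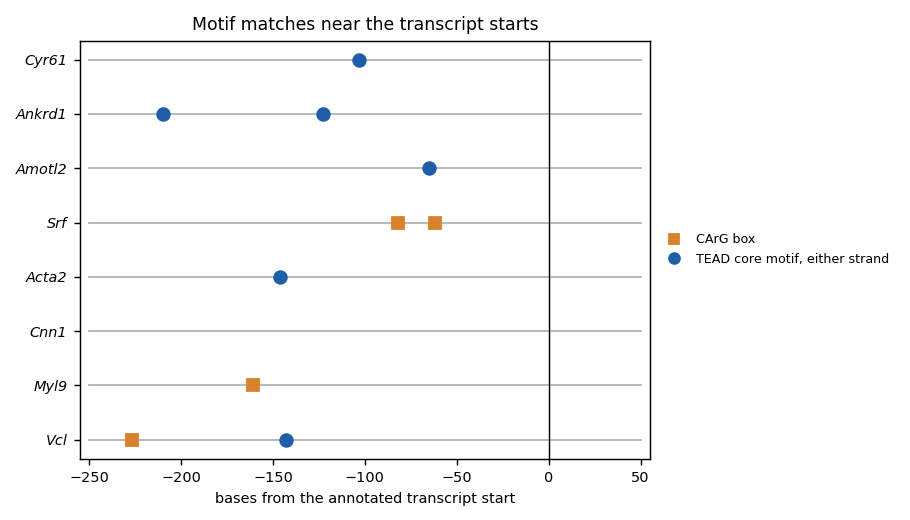
Positions of the CArG box (squares) and of the TEAD core motif (circles) in 8 promoter windows, in bases from the annotated transcript start, with 1 line per gene. Srf has 2 CArG boxes, Ankrd1 has 2 TEAD motifs, Vcl has 1 of each and Cnn1 has neither.

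Values are given as the scaled signal, which is a probe's background-corrected fluorescence as a multiple of the 75th percentile of its array, so levels of different genes cannot be set against each other. Changes are log2 differences of group means, given ± SE (standard error) with n = 2 arrays in each group, tested with limma over 17192 genes with Benjamini-Hochberg adjustment, and a gene rose or fell when its adjusted p was under 0.05. All 10 genes were well above background on all 6 arrays with the brightest probe, which stood for the gene, and all 10 were tested. Between 57.3% and 68.0% of the spots of an array were well above background, no spot was saturated, and replicate arrays correlated with r = 0.992 to 0.994 across genes. Each of the 2 slides held 1 array of each group, in the same position, so position and time cannot be told apart. The median of all genes was 0.12 at 2 h and 0.07 at 4 h on this scale, while it was -0.34 and -0.20 when arrays were scaled to spike-in controls. Small changes are therefore given with the settings under which they turned.

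The first comparison asked how these targets stood after 2 h of H2O2. All 4 YAP targets fell, by 0.24 to 1.52 on the log2 scale, while Srf and Tagln rose by under 0.4 (both negative after spike-in scaling) and the other 4 SRF targets did not pass. In all 2 of the 10 genes rose and 4 fell, where 23.8% of all tested genes rose and 15.3% fell (39.1% in either direction). On quantile-normalized, median-centred or unscaled values none of the 10 rose and 4 fell, and with spike-in scaling none rose and 6 fell. Over all genes the 4089 that rose and 2636 that fell became 2576 and 3267 with quantile normalization, 1843 and 3823 with median centring, 1529 and 5708 without scaling, and 1460 and 9226 with spike-in scaling. Arrays of the 2 h and untreated groups did not overlap for 6 genes that were higher and 4 that were lower, where this held for 48.0% and 27.4% of all genes. The 10 genes had a median of 0.12, as all genes did. The 4 YAP targets had a median of -0.85, and the 6 SRF targets a median of 0.27. These classes were assigned by list, and the windows of Acta2 and Vcl, here SRF targets, also held GGAATG. The medians therefore do not measure the activity of YAP or SRF. After spike-in scaling each of the 6 SRF targets had a negative change. In these bulk RNA samples, fewer cells of a type and less RNA per cell cannot be told apart.

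Amotl2 encodes a scaffold protein of the angiomotin family that binds YAP and holds it out of the nucleus. Its signal was 5.43 and 5.17 in untreated cells, 1.87 and 1.82 at 2 h, and 4.42 and 4.46 at 4 h. Both 2 h arrays lay far below all the others, and both 4 h arrays lay just below the untreated ones. Amotl2 fell 2.87-fold at 2 h (-1.52 ± 0.06, adjusted p = 0.000265), the 206th lowest change of the 17192 genes. It was 2.40-fold higher at 4 h than at 2 h (1.26 ± 0.06, adjusted p = 0.00166), the 334th highest change in that comparison, and stayed lower at 4 h than in untreated cells (-0.26 ± 0.06, adjusted p = 0.0232). The fall at 2 h and the return by 4 h kept their calls under all 18 alternative settings, and the small deficit at 4 h under 10 of 18. Within slides 1 and 2 the changes at 2 h were -1.54 and -1.50.

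Ankrd1 encodes an ankyrin-repeat cofactor found in the nucleus and in the sarcomere, known as a stretch-responsive gene of heart muscle. Its signal was 1.37 and 1.38 in untreated cells, 0.604 and 0.614 at 2 h, and 0.494 and 0.494 at 4 h. The groups did not overlap, with the order untreated, 2 h, 4 h from high to low. Ankrd1 fell 2.25-fold at 2 h (-1.17 ± 0.05, adjusted p = 0.000365) and 2.78-fold at 4 h (-1.47 ± 0.05, adjusted p = 0.000297), where it had the 183rd lowest change of all genes. Both falls kept their calls under all 18 alternatives. The further step between 2 h and 4 h was small (-0.30 ± 0.05, adjusted p = 0.0155) and missed the threshold under 9 of the 18.

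Cyr61 and Ctgf encode secreted, matrix-bound CCN proteins that act on adhesion, migration and scarring. Cyr61 had a signal of 22.0 and 20.9 in untreated cells, 15.2 and 14.7 at 2 h, and 24.7 and 23.3 at 4 h. The 2 h arrays were the lowest, and the 4 h arrays lay above the untreated ones. Cyr61 fell 1.44-fold at 2 h (-0.52 ± 0.06, adjusted p = 0.00479), and was 1.61-fold higher at 4 h than at 2 h (0.69 ± 0.06, adjusted p = 0.00387). Each of these calls held under 17 of 18 alternatives and was lost after normexp background correction with the 75th percentile. At 4 h against untreated cells Cyr61 did not pass (0.16 ± 0.06, adjusted p = 0.102, 0.0357 with the replicate number as a block), and its change was negative under 4 alternatives, the lowest being -0.11.

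Ctgf had a mean signal of 100.2 ± 0.296 (SD, n = 2) in untreated cells, with the higher array at 100.4, and its arrays gave 84.6 and 84.7 at 2 h, and 68.4 and 68.4 at 4 h. Its 3 groups were ordered like those of Ankrd1, without overlap, and replicates lay within 1 unit of each other. Ctgf fell 1.18-fold at 2 h (-0.24 ± 0.05, adjusted p = 0.0211) and 1.47-fold at 4 h (-0.55 ± 0.05, adjusted p = 0.00219). The call at 4 h held under all 18 alternatives. The call at 2 h was lost under 6 of them, namely normexp with the 75th percentile, no filter on dim probes, and without any 1 of the 4 arrays compared. The change at 2 h depended on the scale, ranging from -0.70 (spike-in scaling) to -0.24. Between 2 h and 4 h Ctgf fell by 0.31 on the log2 scale (adjusted p = 0.0141), a call kept under 8 of the 18.

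**Figure D2:**
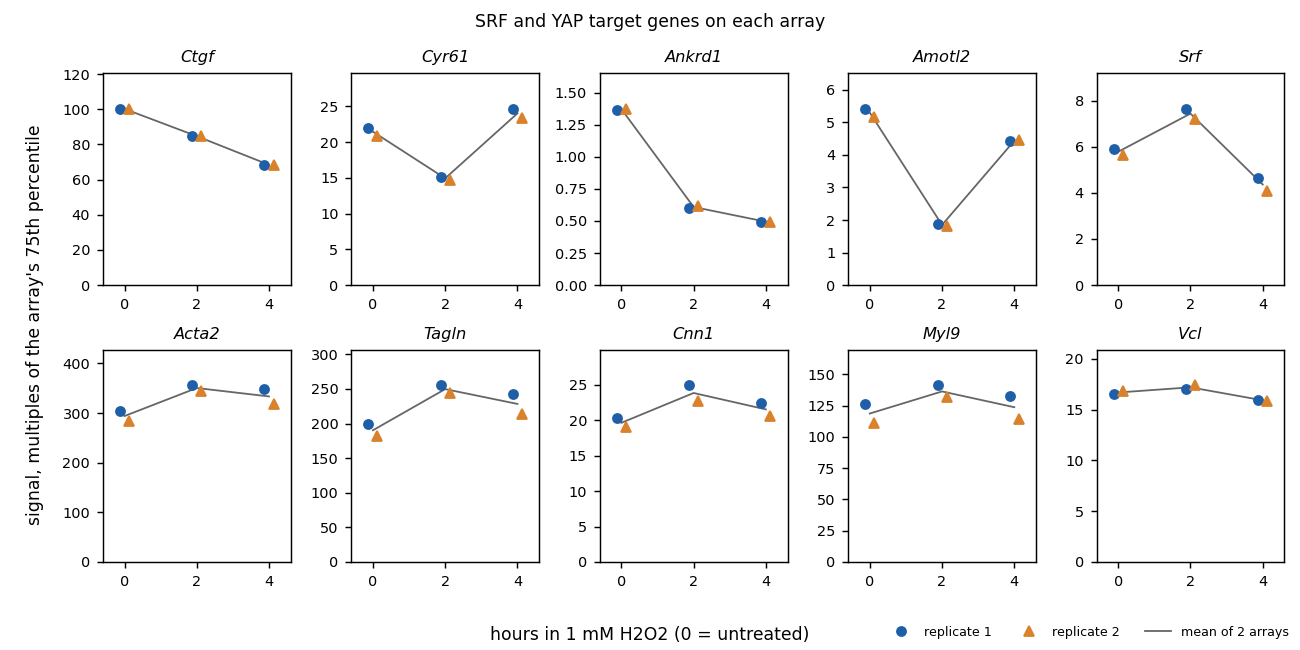
Scaled signal (multiples of the array's 75th percentile, linear axis from 0) of the 10 genes against hours in 1 mM H2O2, with 1 point per array and lines through the means of 2 arrays. Amotl2 and Cyr61 dip at 2 h and are higher again at 4 h, Ctgf and Ankrd1 are lowest at 4 h, Srf peaks at 2 h, and the other 5 genes move little.

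Srf, which encodes the transcription factor and is one of its own targets, moved both ways. Its signal was 5.92 and 5.65 in untreated cells, 7.66 and 7.22 at 2 h, and 4.63 and 4.10 at 4 h. The 2 h arrays were the highest and the 4 h arrays the lowest, without overlap. At 2 h Srf rose 1.29-fold (0.36 ± 0.08, adjusted p = 0.0289), but this call was lost under 10 of 18 alternatives and its change was -0.09 after spike-in scaling. At 4 h it fell 1.33-fold against untreated cells (-0.41 ± 0.08, adjusted p = 0.0192, kept under 13 of 18). The step between the times was the larger one: Srf was 1.71-fold lower at 4 h than at 2 h (-0.77 ± 0.08, adjusted p = 0.00541), a call kept under all 18.

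Tagln encodes transgelin (SM22), an actin-binding protein of smooth muscle and contractile fibroblasts. Its brighter probe gave 199 and 182 in untreated cells, 255 and 244 at 2 h, and 243 and 214 at 4 h. Both 2 h arrays lay above both untreated arrays, and so did both 4 h arrays. Tagln rose 1.31-fold at 2 h (0.39 ± 0.09, adjusted p = 0.0294), with 0.30 from its dimmer probe. The call was lost under 10 of 18 alternatives, and the change was -0.06 on the spike-in scale and 0.02 on quantile-normalized values. At 4 h it did not pass (0.26 ± 0.09, adjusted p = 0.0791, 0.0227 with the replicate number as a block), with -0.09 after quantile normalization.

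Acta2, smooth muscle alpha-actin and the usual marker of contractile fibroblasts, has 5 probes. The brightest, spotted 10 times per array, gave 303 and 285 in untreated cells, 356 and 345 at 2 h, and 348 and 319 at 4 h. Its change was 0.25 ± 0.07 at 2 h (adjusted p = 0.0506, 0.0189 with the replicate number as a block) and 0.18 ± 0.07 at 4 h (adjusted p = 0.109, 0.0367 with the block). Neither passed with the values as given, though the 2 h change passed among genes above background on all 6 arrays (adjusted p = 0.0394). Both changes were negative on the spike-in scale, on unscaled values and on quantile-normalized values with or without normexp, and at 2 h on the spike-in scale Acta2 passed as lower (-0.20, adjusted p = 0.0497). The next 2 probes by signal gave 0.12 and 0.00 at 2 h and 0.04 and -0.09 at 4 h. The fourth gave 0.17 and 0.14, and the faintest, well above background on 3 of 6 arrays, gave -0.49 and -0.55.

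The remaining 3 SRF targets did not pass at either time with the values as given. Cnn1 (calponin, an actin-binding regulator of smooth muscle contraction) had 20.3 and 19.0 in untreated cells, 24.9 and 22.8 at 2 h, and 22.5 and 20.6 at 4 h. Its change was 0.28 ± 0.08 at 2 h (adjusted p = 0.0551, 0.0126 with the replicate number as a block and 0.0424 among genes above background on all 6 arrays) and 0.13 ± 0.08 at 4 h (adjusted p = 0.259), and each was negative under at least 2 of the scalings. Myl9 (the regulatory light chain of smooth muscle and nonmuscle myosin) had 126 and 111 in untreated cells, 141 and 132 at 2 h, and 133 and 114 at 4 h. The 4 h arrays of Myl9 overlapped both other groups. Its change at 2 h was 0.20 ± 0.11 (adjusted p = 0.212, 0.0401 with the block, negative under 4 alternatives), and at 4 h it was 0.06 ± 0.11, but passed as lower after normexp with quantile normalization (-0.23, adjusted p = 0.0431). Vcl (vinculin, which links focal adhesions to actin) gave 16.6 and 16.8 in untreated cells, 17.0 and 17.4 at 2 h, and 16.0 and 15.9 at 4 h. Its change was 0.04 at 2 h, with a 95% interval from -0.09 to 0.18, and -0.07 at 4 h, with an interval from -0.20 to 0.07. The other Vcl probe gave -0.05 and -0.11. After spike-in scaling Vcl had -0.41 at 2 h (adjusted p = 0.00442) and -0.34 at 4 h (adjusted p = 0.00976), and it passed as lower at 4 h under 4 of 18 alternatives.

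**Figure D3:**
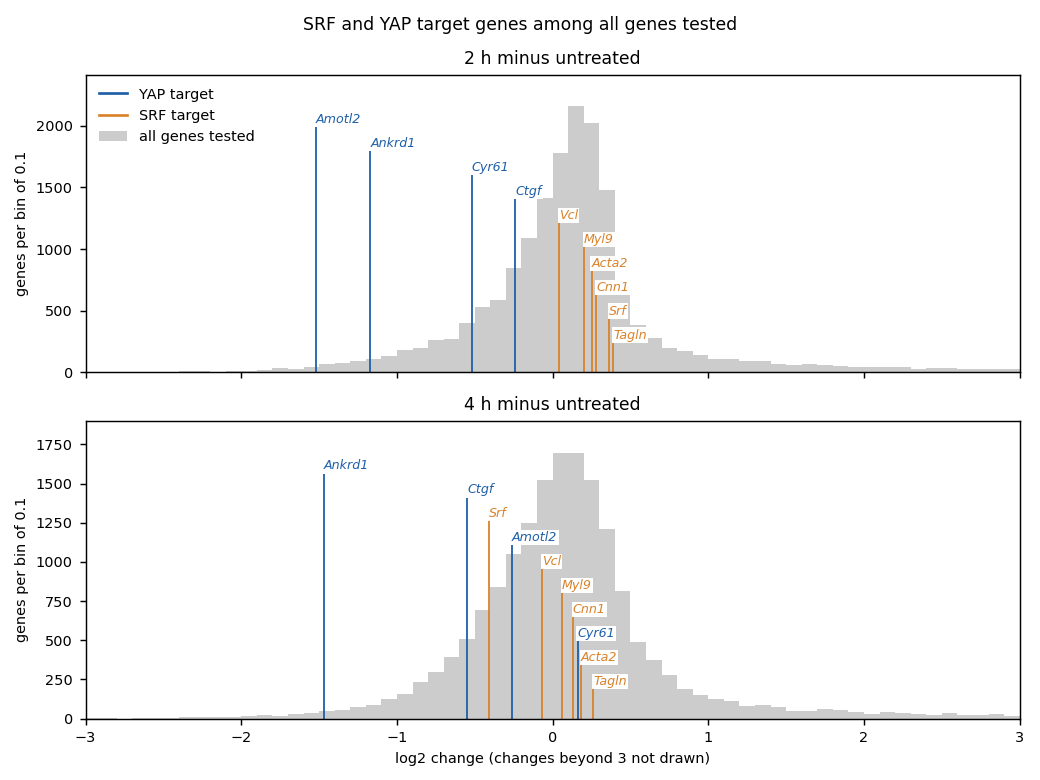
Distribution of log2 changes over the 17192 genes tested (grey bars, genes per bin of 0.1) at 2 h and 4 h against untreated cells, with vertical lines at the 4 YAP targets (blue) and the 6 SRF targets (orange), whose heights only separate the names. At 2 h Amotl2 and Ankrd1 lie in the low tail, and at 4 h only Ankrd1 of the 10 lies below -1.

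The second comparison asked how they stood after 4 h. Of the 10 genes none rose and 4 fell (Ankrd1, Ctgf, Srf and Amotl2), where 24.7% of all tested genes rose and 18.4% fell (4245 and 3171 genes, 43.1% in all). Those counts became 3229 and 3827 with quantile normalization, 2283 and 4105 with median centring, 1765 and 5458 without scaling, and 1954 and 6320 with spike-in scaling. Arrays of the 4 h and untreated groups did not overlap for 4 genes that were higher and 5 that were lower, where this held for 41.9% and 31.4% of all genes. With the replicate number as a block 3 rose (Cyr61, Acta2 and Tagln) and 4 fell, where 5356 of all genes rose and 3937 fell. Set side by side with their 2 h changes, which used the same untreated arrays, the YAP targets split. Ankrd1 had -1.17 at 2 h and -1.47 at 4 h, and Ctgf had -0.24 and -0.55. Amotl2 had -1.52 and -0.26, and Cyr61 had -0.52 and 0.16.

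The third comparison, 4 h against 2 h, is the difference of these changes on the same arrays, so it is no independent test of the split. Amotl2 and Cyr61 rose, Srf, Ctgf and Ankrd1 fell, and the other 5 did not pass, where 13.4% of all genes rose and 16.5% fell (2306 and 2836 genes, 29.9% in all, but 3772 and 1318 with spike-in scaling, 2231 and 1750 with median centring and 2237 and 1584 without scaling). Arrays of the 4 h and 2 h groups did not overlap for 2 higher and 6 lower genes, where this held for 25.9% and 41.2% of all genes. Calls for Amotl2 and Srf held under all 18 alternatives and that for Cyr61 under 17. The falls of Ctgf and Ankrd1 were lost under 10 and 9 of the 18, among them without any 1 of the 4 arrays compared.

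**Figure D4:**
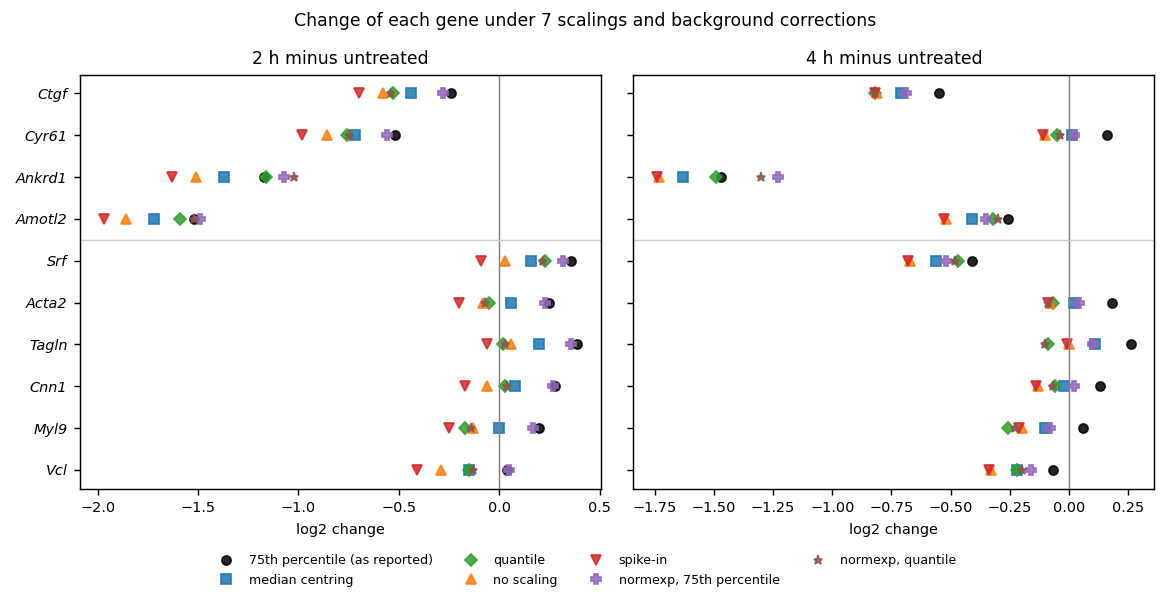
Log2 change of each of the 10 genes at 2 h and 4 h against untreated cells under 7 scalings and background corrections (1 symbol each), with YAP targets above the line and SRF targets below it. Ctgf, Ankrd1 and Amotl2 stay below 0 in both panels and Cyr61 at 2 h, while Cyr61 at 4 h and the SRF targets, other than Srf and Vcl at 4 h, cross 0.

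Of 24 further YAP targets 5 rose, 6 fell and 13 did not pass at 2 h (median 0.05), where 23.8% of all genes rose and 15.3% fell. At 4 h 4 rose, 8 fell and 12 did not pass (median -0.12), where 24.7% of all genes rose and 18.4% fell. Ajuba, a LIM protein of cell adhesions that binds Lats kinases, was also low at 2 h alone. It had 2.10 and 2.71 in untreated cells, 0.627 and 0.670 at 2 h, and 2.15 and 2.11 at 4 h, and fell at 2 h (-1.88 ± 0.13, adjusted p = 0.00111). Edn1, which encodes the peptide endothelin-1, fell at 2 h (-1.54 ± 0.09) and 4 h (-1.49 ± 0.09), though by 0.72 and 0.16 after normexp with the 75th percentile, where neither passed. The exchange factor gene Arhgef17 fell by 0.79 at 2 h (0.46 on its other probe), and Thbs1 (the matrix protein thrombospondin-1) fell by 0.54 at 4 h. In the other direction, F3 (tissue factor, which starts coagulation) rose by 0.55 at 2 h (0.10 with spike-in scaling, call kept under 15 of 18 alternatives), and Ptpn14 (a phosphatase that binds YAP) and the kinase gene Nuak2 rose by 0.76 and 0.71 at 4 h. Among the other CCN genes on the array Ccn5 fell by 0.30 at 4 h, a call lost under 8 of 17 alternatives, among them each of the 6 fits without 1 array, and Ccn3 and Ccn4 did not pass at either time.

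The transcripts of the regulators were measured as well. Yap1 had 2.44 and 2.92 in untreated cells, 2.14 and 2.00 at 2 h, and 2.29 and 2.60 at 4 h. It was lowest at 2 h but did not pass (-0.37 ± 0.12, adjusted p = 0.0694), and passed under 4 of 18 alternatives. Wwtr1, which encodes TAZ, had 12.9 and 12.0 at 2 h, against 8.36 and 8.02 in untreated cells. It rose by 0.61 ± 0.06 at 2 h (adjusted p = 0.00322, 0.57 on its other probe, 0.15 after spike-in scaling) and had 0.12 at 4 h (adjusted p = 0.205). Of 26 Hippo pathway and TEAD genes 1 rose, 9 fell and 16 did not pass at 2 h, and 1 rose, 6 fell and 19 did not pass at 4 h, beside the shares over all genes given above. Tead4 fell by 2.38 ± 0.14 at 2 h, when it was well above background on 1 of 2 arrays, and by as little as 0.92 after normexp with the 75th percentile. Tead3 fell by 0.47 and Vgll4, which competes with YAP for TEAD factors, by 0.53, each call kept under 17 of 18 alternatives. Tead1 did not pass at 2 h (0.11 ± 0.07, -0.35 after spike-in scaling) or 4 h (-0.23 ± 0.07, adjusted p = 0.0581, 0.0189 with the replicate number as a block), but at 4 h it passed as lower under 7 of 17 alternatives. At 4 h the largest fall of this list was in Fat4, a giant protocadherin (-1.18 ± 0.07, adjusted p = 0.000694, -1.17 on its other probe above background), and Amot, the founding angiomotin, fell by 0.45. The Hippo kinase gene Stk3 fell by 0.44 (-0.23, -0.61 and 3.60 on other probes, 0.58 and higher as the mean of all), a call kept under 10 of 18 alternatives, and Mob1b, a coactivator of Lats kinases, rose by 0.41 (0.74 and -1.33 on other probes), a call lost under 8 of 17.

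Of 18 early response genes controlled by SRF with ternary complex factors 16 rose and none fell at 2 h (median 0.82, against 0.12 for all genes), and 10 rose and 3 fell at 4 h (median 0.42). Fosb rose by 3.17 ± 0.22 and Egr4 by 2.50 ± 0.08 at 2 h, Junb by 1.33 ± 0.06, and Btg2 by 1.36 ± 0.08 (1.97 and 2.05 on its other probes). Under the alternatives the 2 h changes of Fosb and Egr4 were as low as 1.86 and 1.82. Both were dim in untreated cells (Fosb 0.0513 and 0.0469, Egr4 0.138 and 0.131), and Egr4 had -0.39 at 4 h. At 4 h Fosl1 rose by 1.73 ± 0.08, Btg2 by 1.25 ± 0.08 and Fos by 0.93 ± 0.09, with calls kept under all 18 alternatives. Fosb rose by 1.01 ± 0.22 at 4 h, a call lost under 8 of 18 (lowest 0.38). Of 39 further cytoskeletal targets of SRF and MRTF 11 rose, 2 fell and 26 did not pass at 2 h (median 0.21), and 8 rose, 8 fell and 23 did not pass at 4 h (median 0.04). Of all genes 23.8% rose and 15.3% fell at 2 h, and 24.7% and 18.4% at 4 h. Between 2 h and 4 h none of the 39 rose and 10 fell (median -0.16), where 13.4% of all genes rose and 16.5% fell (median -0.08). Their rises at 2 h included Actb (beta-actin, 0.66 ± 0.15), Itga5 (an integrin chain, 0.51 ± 0.09) and Des (desmin, 0.43 ± 0.09, -0.02 after spike-in scaling), which passed under 9, 11 and 9 of 18 alternatives.

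Among the targets that fell, Lmod1, an actin nucleator of smooth muscle, had 4.62 and 4.53 in untreated cells, 2.74 and 2.61 at 2 h, and 1.64 and 1.58 at 4 h. It fell by 0.77 ± 0.06 at 2 h and 1.50 ± 0.06 at 4 h (adjusted p = 0.000369). At 4 h the focal adhesion adaptor gene Tgfb1i1 fell by 0.83 (0.74 and 0.80 on its other probes), the smooth muscle gene Smtn by 0.71 and the focal adhesion gene Zyx by 0.62. The calls for Lmod1, Tgfb1i1 and Smtn held under all 18 alternatives, and that for Zyx under 17. Among the cofactors of SRF, Mrtfa, which encodes MRTF-A, fell by 0.45 ± 0.08 at 2 h (0.39 on its other probe, adjusted p = 0.0150), a call lost under 5 of 17 alternatives, and had -0.10 at 4 h (adjusted p = 0.401, passing as lower under 3 of 17). Mrtfb (MRTF-B) had 0.208 and 0.424 at 2 h, against 0.111 and 0.121 in untreated cells. It passed at 2 h (1.35 ± 0.37, adjusted p = 0.0447, 0.0623 with the replicate number as a block; another probe, above background on the 2 h arrays alone, gave 5.54), but under only 4 of 17 alternatives, and did not pass at 4 h (0.85 ± 0.37, passing under 2 of 17). Myocd, which encodes the muscle SRF cofactor myocardin, was well above background on both untreated arrays and on no 4 h array. On the 75th percentile scale it was at least 1.69-fold lower at 4 h (limma adjusted p = 0.0156 for the change without this bound). Such a bound sets the mean of the brighter group against, on each dim array, the higher of the probe's own signal and the lowest signal well above background. The Myocd change turned to 0.35 after normexp with the 75th percentile. The formin gene Fhod1 fell by 0.81 at 2 h and 0.78 at 4 h, with calls kept under 15 and 16 of 18 alternatives.

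**Figure D5:**
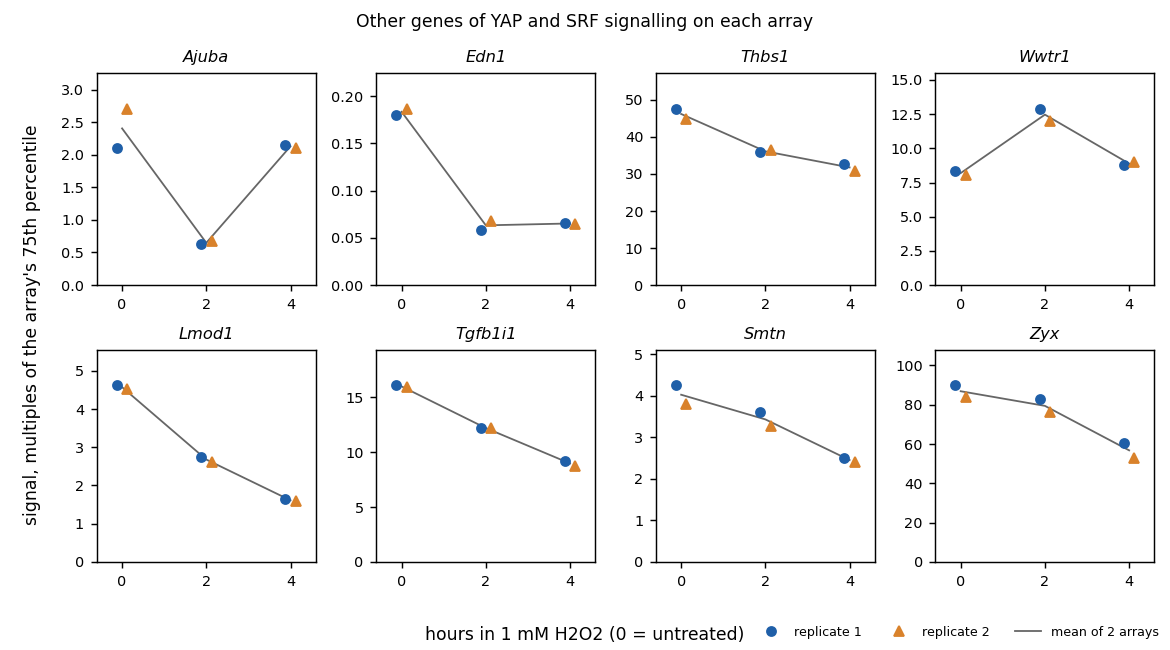
Scaled signal (multiples of the array's 75th percentile, linear axis from 0) of 8 further genes of YAP and SRF signalling against hours in 1 mM H2O2, with 1 point per array and lines through the means of 2 arrays. Ajuba dips at 2 h and returns, Wwtr1 peaks at 2 h, and Edn1, Thbs1, Lmod1, Tgfb1i1, Smtn and Zyx are below their untreated arrays at 4 h.

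The genes with the most similar course were found by Euclidean distance over the 6 arrays, each value taken relative to the gene's untreated mean. Nearest to Ctgf were Man1c1 (a Golgi mannosidase, distance 0.046), Igsf10 (0.0533) and Ccne1 (cyclin E1, 0.0542). Nearest to Acta2 were Mrpl11 (a mitochondrial ribosomal protein, 0.0311), Slc25a4 (an adenine nucleotide carrier, 0.0325) and Ufc1 (0.036). Near Srf, at larger distances, were Mpo (0.141) and Cdkal1 (0.162).

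The label of fibroblasts was set against marker lists. All 10 fibroblast markers were well above background on all 6 arrays, with a summed scaled signal of 1020 to 1090 in untreated cells, 1280 to 1310 at 2 h and 1210 to 1320 at 4 h. The 10 smooth muscle and pericyte markers, which share Myh11, Smtn, Lmod1, Actg2 and Des with the list of further SRF targets, were also above background on all 6. Their sum was 84.0 to 88.1 in untreated cells, 84.0 to 87.6 at 2 h and 78.6 to 80.0 at 4 h, with 1 up and 2 down at 2 h and 1 up and 3 down at 4 h. Heart muscle markers, of interest for Ankrd1, summed to 1.36 to 1.48 in untreated cells, 2.74 to 2.80 at 2 h and 2.22 to 2.59 at 4 h. Of these 10 markers 5 were above background on all arrays and Myh6 and Myl2 on none. Of the 7 tested 2 rose and 5 did not pass at 2 h, and likewise at 4 h, and Tnnt2 made up most of the difference in the sum (0.897 and 0.828 in untreated cells, 2.05 and 2.00 at 2 h, 1.78 and 1.70 at 4 h). Endothelial markers summed to 0.553 to 0.612 in untreated cells, 1.11 to 1.19 at 2 h and 1.05 to 1.07 at 4 h, with Cdh5 above background on no array and 4 of 8 on all. Of the 7 tested 5 rose and 2 did not pass at 2 h, and 3 rose and 4 did not pass at 4 h. Of all genes 23.8% rose at 2 h and 24.7% at 4 h. Robo4, Pecam1 and Cldn5 passed the background filter only in treated groups. For them a rise was favoured in advance, so the endothelial counts cannot be set against those shares. At 4 h Pecam1 counted as a rise though it was above background on no array compared. The endothelial markers named next are the ones with the largest passing changes. Vwf, above background on all 6 arrays, rose by 1.81 ± 0.07 at 2 h and by 2.22 at 4 h. Robo4 and Pecam1 were above background on no untreated array. On the 75th percentile scale Robo4 was at least 5.43-fold higher at 2 h and 3.31-fold at 4 h. Pecam1 was at least 2.26-fold higher at 2 h on that scale and above background on no 4 h array. The limma adjusted p-values of the changes without such a bound were 7.29e-05 and 0.000126 for Robo4, and 0.000163 for Pecam1. Under the alternatives the log2 change of Robo4 was as low as 0.91 at 2 h and 0.6 at 4 h. That of Pecam1 was as low as 0.38 at 2 h. Cldn5, above background on 1 of 2 untreated arrays, rose by 3.77 ± 0.60 at 2 h, or by 1.14 after normexp with quantile normalization. After normexp with the 75th percentile the 2 h calls of these 3 genes were lost. Skeletal muscle markers summed to 4.36 to 6.51 in untreated cells, 5.34 to 7.97 at 2 h and 4.91 to 6.16 at 4 h, with Myod1, Myf5 and Myf6 above background on no array. Epithelial markers summed to 1.60 to 1.69 in untreated cells, 2.49 to 2.56 at 2 h and 2.39 to 2.66 at 4 h, with Epcam above background on no array. Macrophage markers summed to 18.2 to 19.7 in untreated cells, 21.5 to 21.8 at 2 h and 20.6 to 22.0 at 4 h, with 6 of 7 above background on all arrays. Of 6 skeletal muscle markers tested 4 rose at 2 h and 3 at 4 h. At each time 3 of 5 epithelial and 3 of 7 macrophage markers tested rose, and no marker of these 3 lists fell. Cdh1 and Itgam, among those rises, were above background on only 4 of 6 arrays. Lyz2 (17.2 and 15.9 in untreated cells) made up most of the macrophage sum, and Acta1 (3.46 and 5.65) most of the skeletal muscle sum. The part of such cells in the changes above was not tested.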

How the data were processed

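Scanner and extraction software are named per the file headers as an Agilent G2505B and Feature Extraction 9.5.3.1, run with the GE1-v5_95_Feb07 protocol. The deposited files give each spot's fluorescence intensity, and the authors' value table repeats the processed intensity to within 0.0005. For the tests, log2 of that signal was taken, each array's 75th percentile over non-control spots was subtracted, outlier spots were left out (99 to 149 per array) and repeated spots averaged. Probes were named by RefSeq accession, symbol or older symbol. The brightest probe stood for a gene. A gene was tested if some group had it well above background on each of its arrays (for a repeated probe, on at least 50% of its spots). A single model of the 3 groups was fitted with limma 3.58.1 in R 4.3.3 (tables handled by the package data.table, release 1.17.8), with 3 residual and 1.63 prior degrees of freedom. The fit was also run on simulated data, with arrays drawn independently and few genes changed. Those settings differ from these data, where arrays share slides and many genes were called. The number of arrays limits the precision, and p-values measure the spread between experiments whose independence the labels do not detail. The 75th percentile of signal was 674 to 883.

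Same-numbered arrays share a slide, and their deviations from group means correlated across genes (r = 0.24, 0.20 and 0.24 for the 3 pairs of groups), so the replicate number was a block in an alternative. The named genes were all 10 members, up to 4 per other list with the largest passing change at each time (of the marker lists, the endothelial ones are printed), 5 regulators whatever their result, and the 3 nearest genes of Ctgf, Srf and Acta2. A few of these are not reported here. Ccn3 and Ccn4 were added after their values were seen. Members and lists were chosen with earlier results of these data known. The alternatives changed the scaling, background correction, filter, probe choice, naming and block, and left out each array in turn. Coordinates are those of the RefSeq promoters; probe coordinates were not used.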

Additional observations from a re-analysis of the deposited data

Results flagged for a closer look

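Changes at 2 h and at 4 h differed, by the test of 4 h against 2 h itself, in 5 of the 10 genes. Of all genes 29.9% were called in that test. The 4 h value was higher by 1.26 for Amotl2 (log2, limma adjusted p = 0.00166) and by 0.69 for Cyr61 (0.00387). It was lower for Srf (-0.77, 0.00541), Ctgf (-0.31, 0.0141) and Ankrd1 (-0.30, 0.0155). The calls for Ctgf and Ankrd1 were lost under 10 and 9 of 18 alternatives. Groups of 2 arrays are too small for a test of single outlying arrays.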

How the results depend on the processing

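Each of the 10 genes was recomputed under 18 alternatives, 6 of which left out 1 array. Calls that held under all 18 were those of Ankrd1 at 2 h and 4 h, Ctgf at 4 h, Amotl2 at 2 h, and Amotl2 and Srf between 4 h and 2 h. Of the 10 genes 6 were called at 2 h, 2 after normexp with the 75th percentile and 3 with no filter on dim probes, but 8 among genes above background on all 6 arrays and 9 with the replicate number as a block. At 4 h 4 were called, and 2 after normexp with the 75th percentile or with no filter on dim probes. Among genes above background on all 6 arrays 4 were called at 4 h, and 7 with the replicate number as a block. Between 4 h and 2 h 5 were called, 3 with median centring, no scaling, spike-in scaling or no filter, and 2 after normexp with the 75th percentile. Leaving out 1 array gave 3 to 6, 2 to 3 and 3 to 5 genes. Over all genes, the 6725, 7416 and 5142 calls became 1552, 2367 and 1028 when normexp was combined with the 75th percentile (6146, 7406 and 5552 with quantile normalization in its place) and 4038, 4553 and 2486 without the filter. Spike-in scaling gave 10686 at 2 h, and leaving out 1 array gave 3602 to 6104, 4331 to 6137 and 2361 to 4196. Over all genes the replicate block gave 9075, 9293 and 6868 calls among the same 17192 genes. Genes above background on all 6 arrays gave 6239, 7046 and 5026 calls, with fewer genes tested. The cause of these shifts was not tested.

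Signs turned mostly with the scaling, for genes whose changes were small. With quantile normalization, 2 h changes were -0.05 for Acta2, -0.17 for Myl9, -0.15 for Vcl and -0.12 for Tead1, and 4 h changes -0.05 for Cyr61, -0.07 for Acta2, -0.09 for Tagln, -0.06 for Cnn1 and -0.26 for Myl9. Without scaling they were -0.08 for Acta2, -0.06 for Cnn1, -0.13 for Myl9, -0.29 for Vcl and -0.23 for Tead1 at 2 h. At 4 h they were -0.10 for Cyr61, -0.08 for Acta2, -0.13 for Cnn1, -0.20 for Myl9 and -0.14 for Wwtr1, and Acta2 had 0.00 between 4 h and 2 h. With spike-in scaling 2 h changes were -0.09 for Srf, -0.20 for Acta2, -0.06 for Tagln, -0.17 for Cnn1, -0.25 for Myl9, -0.41 for Vcl, -0.35 for Tead1 and -0.02 for Des. At 4 h they were -0.11 for Cyr61, -0.09 for Acta2, -0.01 for Tagln, -0.14 for Cnn1, -0.21 for Myl9 and -0.15 for Wwtr1. Between 4 h and 2 h they were 0.11 for Acta2, 0.05 for Tagln, 0.04 for Cnn1, 0.04 for Myl9 and 0.07 for Vcl. With normexp and quantile normalization 2 h changes were -0.07 for Acta2, -0.14 for Myl9, -0.13 for Vcl and -0.12 for Tead1, and 4 h changes -0.04 for Cyr61, -0.09 for Acta2, -0.10 for Tagln, -0.07 for Cnn1, -0.23 for Myl9 and -0.02 for Wwtr1. Median centring gave -0.15 for Vcl and -0.09 for Tead1 at 2 h, and -0.02 for Cnn1, -0.10 for Myl9 and -0.04 for Wwtr1 at 4 h. Normexp with the 75th percentile gave -0.08 for Myl9, -0.02 for Wwtr1 and 0.35 for Myocd at 4 h. The mean of a gene's probes gave 0.00 for Vcl at 2 h, and -0.05 for Acta2 and 0.58 for Stk3 at 4 h. Myl9 at 4 h ranged from -0.05 to 0.17 when 1 array was left out (-0.03 without untreated replicate 2 and -0.05 without 4 h replicate 1). With 2 arrays per group, and signals near background for genes such as Edn1 and Tead4, small changes are imprecise.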
